A study of Homo sapiens with 6 samples.

Results

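NDFIP1 and its relatives form a small circuit of ubiquitin transfer, and this account follows 10 of its genes on arrays of glioblastoma cells given a microRNA. The 10 genes were the adaptors NDFIP1, NDFIP2 and ARRDC4 and the ligases NEDD4, NEDD4L, ITCH, WWP1, WWP2, SMURF1 and SMURF2. They were chosen by name, out of 18417 genes that the array's annotation named, and for each gene the brightest probe set over the 6 arrays was to be used. Each of the 10 had 1 probe set with its symbol alone, so no choice between probe sets was needed, and all 10 passed the filter on low values that left 13813 genes. NDFIP1 and ARRDC4 were put among them with their change on these same arrays already known. Their change is therefore given as a description and supports nothing by itself.

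The RNA came from A172, T98G and U87MG cells, which are established lines from human glioblastoma, a malignant tumour of glial character. Each line was transfected with pre-miR338-5p, a precursor that supplies the microRNA miR-338-5p and is called the mimic here, or with a negative control oligonucleotide, and was harvested after 24 hours. This gave 1 array per line and group, or 3 mimic arrays and 3 control arrays. All cells, controls included, had been transfected, the study's stated aim was to find targets of the microRNA, and no untransfected cells were analysed here.

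NEDD4-family ligases attach ubiquitin to membrane receptors, channels, transporters and signalling proteins, which changes where these proteins go and how long they last. They carry WW domains that bind short PY motifs, and many of them hold themselves inactive until a partner binds. NDFIP1 and NDFIP2 are membrane proteins of the Golgi and endosomes whose PY motifs recruit and activate these ligases, and arrestin-domain proteins such as ARRDC4 link them to cargo. In the brain NDFIP1 is known for its rise in stressed neurons, where it helps to remove the metal transporter DMT1.

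A microRNA pairs with messenger RNAs mainly through its seed, bases 2 to 8. The mature strand supplied by the mimic is shown first, with the seed in capitals, and the opposite strand of the same hairpin is shown to compare the seeds. Both are RefSeq sequences (GRCh38.p14), at chr17:81125923-81125944 and chr17:81125887-81125908 on the minus strand.
hsa-miR-338-5p: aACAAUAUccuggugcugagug
hsa-miR-338-3p: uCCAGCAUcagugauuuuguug
A messenger RNA that pairs with the whole miR-338-5p seed holds the letters AUAUUGU, while the seed of the opposite strand pairs with AUGCUGG. Each seed belonged to 1 of the 2370 mature microRNA names in the table, so neither strand shares its full seed with another listed microRNA. The messenger RNAs of the 10 genes were not searched for these letters here.

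Values are log2 expression after RMA, the authors' background correction, normalization and summary of each probe set, and 1 unit is a 2-fold difference. Array medians ran from 5.06 to 5.14. Over probe sets the 2 arrays of a line had a correlation of 0.992 to 0.993, against 0.954 to 0.962 for arrays from unlike lines. Of the glial and glioblastoma markers, VIM averaged 12.3, CD44 11.7 and EGFR 8.56 over the 6 arrays, while GFAP at 5.22 stood little above the filter level of 4.28 and S100B at 3.76 below it. NES averaged 5.97, OLIG2 4.49 and SOX2 4.35. Of the markers of other cell types, PTPRC and CD3E (leukocyte), PECAM1 and VWF (endothelial) and CDH1 (epithelial) had means below the filter level, and CD14 at 4.28, EPCAM at 4.33 and CDH5 at 4.34 stood at or just above it. The epithelial keratin KRT8 averaged 6.99 and was at 10.5 and 10.4 in A172 with the mimic and the control. The neuronal markers SYN1 and RBFOX3 averaged 4.69 and 4.76, and SNAP25 averaged 6.19 and was at 7.92 and 8.11 in U87MG with the mimic and the control. Of the 14 tested genes on these marker lists 0 passed limma's adjusted threshold between mimic and control, against 1.11% of all genes, and 2 had an unadjusted p under 0.05, against 11.8%. One of them was EGFR, at -0.58, -0.43 and -0.36 in A172, T98G and U87MG (mean -0.46, adjusted p = 0.0641), and the other was RBFOX3 at -0.27 (adjusted p = 0.394). The part of these markers in the results below was not tested.

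The first comparison asked which genes of the circuit changed after the mimic. NDFIP1 fell to 51.5% of its control level, by nearly the same amount in every line, while no ligase and neither of the other adaptors passed the threshold of adjusted p under 0.05 in limma's fit with the line as a block. In all, 1 of the 10 genes passed it, against 153 of all 13813 genes, a share of 1.11%. The lower calls made up 0.789% of all genes and the higher calls 0.319%.

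With the mimic NDFIP1 stood at 7.06 (A172), 6.77 (T98G) and 6.92 (U87MG), against 8.03, 7.72 and 7.87 in the same lines with the control. The 3 mimic arrays all lay below the 3 control arrays, which held for 1.56% of all genes. In such bulk RNA, fewer cells with a transcript and less of it per cell cannot be told apart. The changes in A172, T98G and U87MG were -0.97, -0.95 and -0.95, with a mean of -0.96 ± 0.01 (SD over lines, n = 3). It was the 1 gene of the 10 that was lower by at least 0.5 in each line, a size that 1.72%, 2.24% and 1.85% of all genes reached in A172, T98G and U87MG. By contrast 0 of the 10 were higher by 0.5 in any line (1.96%, 1.46% and 1.38% of all genes). In the order of all genes by mean change, NDFIP1 was the 21st from the lowest, and it was the 25th, 36th and 26th within A172, T98G and U87MG. The SD of its change over the lines, 0.0123, was small beside the median SD of 0.134 over all tested genes. An SD that small was found in 111 of all tested genes (0.804%). Of the 109 genes called lower, 4 had one, NDFIP1 included, but a small SD itself helps a gene to be called. The call was lost without the U87MG arrays, although the change without them was still -0.96 (adjusted p = 0.0900, with 0 of all genes past the threshold and 1339 at an unadjusted p under 0.05).

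NDFIP2, the close relative of NDFIP1 that binds the same ligases, had levels of 5.89, 6.15 and 7.09 with the mimic in A172, T98G and U87MG, against 5.98, 6.27 and 7.23 with the control. It was slightly lower in all 3 lines, but its groups overlapped, and its mean change of -0.12 ± 0.03 (SD, n = 3) did not pass (adjusted p = 0.579 with limma). The 95% interval of that change ran from -0.29 to 0.05. By comparison 15.8% of all genes were lower in all 3 lines.

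ARRDC4, an arrestin-domain protein that also takes part in the control of glucose uptake, had levels of 5.56, 6.26 and 7.50 with the mimic in A172, T98G and U87MG, against 5.24, 5.85 and 7.22 with the control. It was higher with the mimic in every line, as were 18.5% of all genes. The changes were 0.32, 0.41 and 0.28, with a mean of 0.33 ± 0.06 (SD, n = 3), or 126% of the control level. This was the 239th highest mean change among all genes. ARRDC4 did not pass over all genes (adjusted p = 0.128 with limma), and its groups overlapped because the lines differed by more than the mimic changed it.

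**Figure D1:**
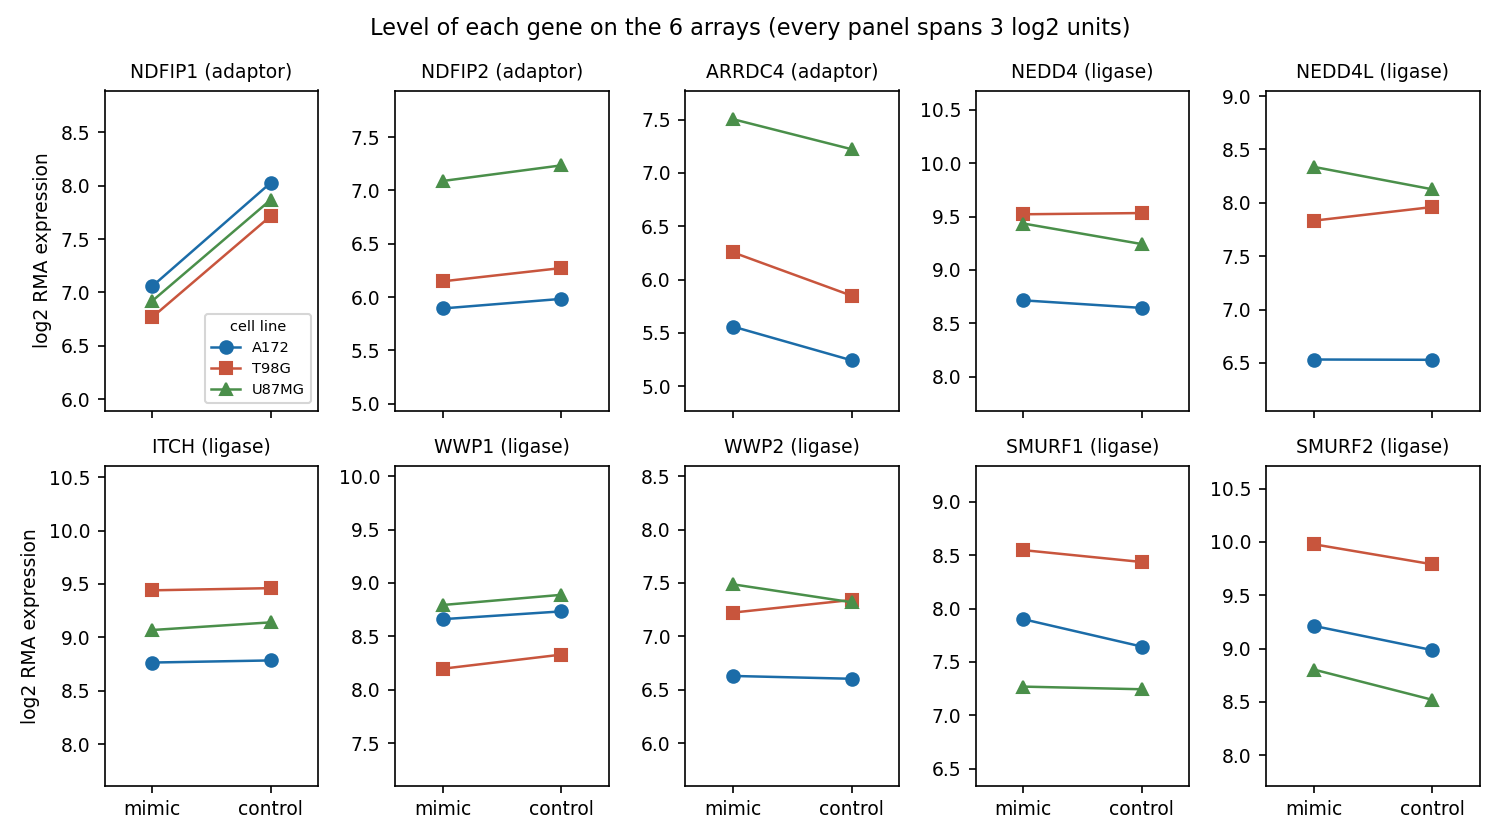
Log2 RMA expression of the 10 genes with the mimic (left) and with the control (right) in A172 (circles), T98G (squares) and U87MG (triangles), 1 array per point, with a line joining the 2 arrays of a cell line. NDFIP1 lay between 6.77 and 7.06 with the mimic and between 7.72 and 8.03 with the control, while the groups of the other 9 genes overlapped.

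The 7 ligases had a median change of 0.03, beside 0.01 over all tested genes. Of them 0 passed limma's adjusted threshold, against 1.11% of all genes, and 1 had an unadjusted p under 0.05, against 11.8%. SMURF2, a ligase of SMAD proteins and TGF-beta receptors, was the gene with that unadjusted p. Its levels were 9.21, 9.98 and 8.80 with the mimic in A172, T98G and U87MG, against 8.99, 9.79 and 8.52 with the control. Each line was a little higher with the mimic, by 0.23, 0.19 and 0.28. The mean was 0.23 ± 0.05 (SD, n = 3; adjusted p = 0.268), and the 95% interval ran from 0.06 to 0.41.

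SMURF1, which shares SMAD and RHOA substrates with SMURF2, was also higher in each line, but unevenly. Its levels were 7.90, 8.55 and 7.27 with the mimic in A172, T98G and U87MG, against 7.64, 8.44 and 7.24 with the control, and the mean change was 0.13 ± 0.12 (SD, n = 3; adjusted p = 0.592). ITCH, known for its part in restraining T cells and for its substrate JUNB, and WWP1, a ligase of KLF factors, were the ligases lower in each line. ITCH had levels of 8.76, 9.44 and 9.07 with the mimic, against 8.78, 9.46 and 9.14 with the control, a mean change of -0.04 (adjusted p = 0.885). WWP1 had 8.66, 8.20 and 8.79 with the mimic, against 8.73, 8.33 and 8.89 with the control, a mean change of -0.10 (adjusted p = 0.648).

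NEDD4, NEDD4L and WWP2 had changes of either sign, depending on the line. NEDD4, the founding member, had levels of 8.71, 9.52 and 9.43 with the mimic in A172, T98G and U87MG, against 8.64, 9.53 and 9.24 with the control. NEDD4L, best known for removing the epithelial sodium channel, had 6.53, 7.83 and 8.34 with the mimic, against 6.53, 7.96 and 8.13 with the control. WWP2 had 6.63, 7.22 and 7.49 with the mimic, against 6.60, 7.34 and 7.32 with the control. In all of them U87MG was the line with the highest change and T98G the line with the lowest, and their mean changes were 0.08, 0.03 and 0.03 (adjusted p between 0.736 and 0.936). Over the 7 ligases the lowest end of a 95% interval was -0.27 (WWP1) and the highest 0.41 (SMURF2). HECW1 and HECW2, the ligases that complete the family of 9, had mean changes of 0.14 and 0.03 with mixed signs over the lines, and neither passed (adjusted p = 0.655 and 0.941).

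**Figure D2:**
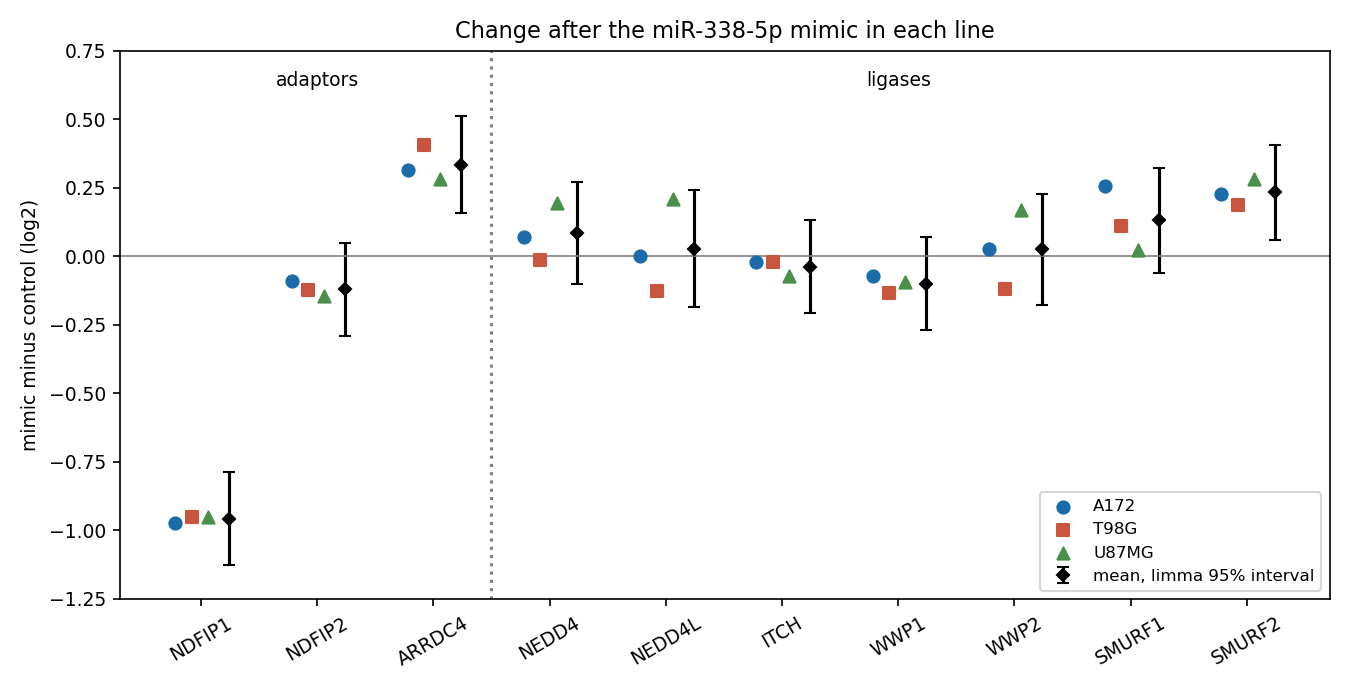
Mimic minus control (log2) for each gene in A172 (circles), T98G (squares) and U87MG (triangles), with the mean over the lines and limma's 95% interval (diamonds), adaptors on the left and ligases on the right. NDFIP1 lies at -0.96, apart from the other 9 genes, whose means range from -0.12 for NDFIP2 to 0.33 for ARRDC4.

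Set against each other within each line, the 3 adaptors had mean changes of -0.25, -0.22 and -0.27 for A172, T98G and U87MG, against 0.07, -0.02 and 0.10 for the 7 ligases. The difference of adaptors minus ligases was -0.30 ± 0.08 (SD, n = 3 lines). The adaptors did not move as a set, since their mean joined the fall of NDFIP1 with changes of -0.12 and 0.33. NDFIP1 alone minus the ligases was -1.04, -0.93 and -1.05 in A172, T98G and U87MG. The adaptors hold genes singled out on this contrast, so these differences carry no test.

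Line levels were not used to choose the genes, although earlier results of these data were known. The second comparison asked how the lines differed in them. It used limma with the group as an additive term and with 2 arrays per line, the mimic and the control one, so its p-values measure how alike the arrays of a line are after the mean effect of the mimic. The F test over the 3 lines called all 10 genes, but it called 67.5% of all genes, so the count says little about these genes in particular. The A172 arrays differed from the T98G arrays in 10 of the 10 genes (50.5% of all genes), from the U87MG arrays in 8 (54.2% of all genes), and the T98G arrays from the U87MG arrays in 7 (47.1% of all genes).

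NDFIP1 was the most even of the 10 genes across the lines. Its line means spanned 0.30, against 0.58 for WWP1, the next narrowest, and 1.96 for ARRDC4, the widest. A172 stood highest at 7.54, followed by U87MG at 7.39 and T98G at 7.24, each the mean of a mimic and a control array. A172 was higher than T98G by 0.30 ± 0.09 (SE; adjusted p = 0.0256), but neighbours in that order did not differ past the threshold, with A172 minus U87MG at 0.15 (adjusted p = 0.190) and T98G minus U87MG at -0.15 (adjusted p = 0.196). The difference between A172 and T98G was 0.25 with adjusted p = 0.0706 when arrays were centred on their medians, and stayed at 0.30 with adjusted p = 0.624 with no group term in the fit.

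NDFIP2, ARRDC4 and NEDD4L shared one order, highest in U87MG and lowest in A172. The means of WWP2 and HECW2, given below, had that order too, although T98G and U87MG did not differ past the threshold in WWP2. ARRDC4 averaged 5.40 in A172, 6.05 in T98G and 7.36 in U87MG. A172 minus U87MG was -1.96 ± 0.09 (SE; adjusted p = 7.71e-06), which is 3.89-fold lower in A172, and the neighbours in the order differed as well (A172 minus T98G -0.65, adjusted p = 0.00113; T98G minus U87MG -1.31, adjusted p = 5.01e-05). NEDD4L averaged 6.53 in A172, 7.90 in T98G and 8.23 in U87MG, with A172 minus U87MG at -1.70 ± 0.11 (SE; adjusted p = 3.45e-05). T98G minus U87MG of NEDD4L was -0.34 (adjusted p = 0.0425, and 0.0661 with no filter on low values). It was -0.17 in the control arrays alone and -0.50 in the mimic arrays alone. NDFIP2 averaged 5.94 in A172, 6.21 in T98G and 7.16 in U87MG, with A172 minus U87MG at -1.22 ± 0.09 (SE; adjusted p = 5.45e-05) and A172 minus T98G at -0.27 (adjusted p = 0.0381, and 0.0651 with no filter).

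SMURF1 and SMURF2 had the opposite place for U87MG, highest in T98G and lowest in U87MG. SMURF1 averaged 7.77, 8.49 and 7.26 in A172, T98G and U87MG. SMURF2 averaged 9.10, 9.88 and 8.66 in A172, T98G and U87MG. T98G minus U87MG was 1.24 ± 0.10 for SMURF1 (SE; adjusted p = 9.61e-05) and 1.22 ± 0.09 for SMURF2 (SE; adjusted p = 6.43e-05), or 2.36-fold and 2.33-fold. For both genes A172 also differed from each of the other lines, with adjusted p from 0.000453 to 0.00576. HECW1 had this order too, at 6.31 in A172, 6.95 in T98G and 5.71 in U87MG.

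NEDD4 and ITCH were highest in T98G and lowest in A172. NEDD4 averaged 8.68 in A172, 9.53 in T98G and 9.34 in U87MG, where T98G and U87MG did not differ past the threshold (0.19, adjusted p = 0.152). ITCH averaged 8.77, 9.45 and 9.10 in the same lines, and all 3 pairs differed, with adjusted p from 0.000824 to 0.0172. WWP2 was lowest in A172 at 6.62 and close in T98G at 7.28 and U87MG at 7.40 (T98G minus U87MG -0.12, adjusted p = 0.376, and 0.02 in the control arrays alone). WWP1 was lowest in T98G at 8.26, against 8.70 in A172 and 8.84 in U87MG, which did not differ past the threshold (-0.14, adjusted p = 0.205). HECW2 had the widest line differences of the ligases measured, with 4.37 in A172, 5.23 in T98G and 6.60 in U87MG.

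The size of the mimic's effect can be set beside the differences between lines within each gene. The variation over the 6 arrays was split into a part for the mimic, a part for the line and a remainder. For NDFIP1 the mimic took 93.8% and the line 6.18%. For each of the other 9 genes the line took at least 94.8% (SMURF2) and the mimic at most 5.04%. Over all genes the median share was 2.33% for the mimic and 89.9% for the line, and the mimic took over 50% in 3.45% of genes. The change of NDFIP1 was 3.18 times the span of its line means, while that of the other genes was between 0.0167 times for NEDD4L and 0.191 times for SMURF2.

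**Figure D3:**
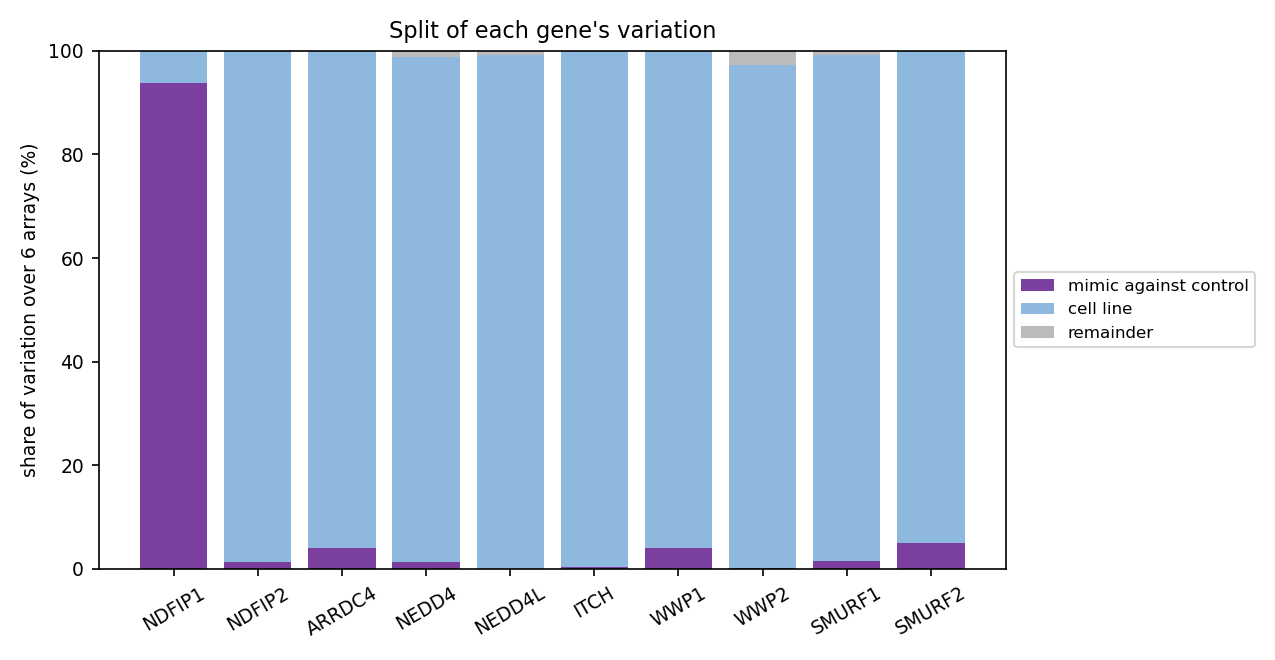
Share (%) of each gene's variation over the 6 arrays that goes with mimic against control, with the cell line, and with neither (remainder). The mimic's share is 93.8% for NDFIP1 and at most 5.04% for the other 9 genes.

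The 5 genes with the pattern most like that of NDFIP1, by the root mean square difference of log2 values centred per gene over the 6 arrays, were MICB (0.0895), SOAT1 (0.146), RNF138 (0.163), C5orf34 (0.175) and BLZF1 (0.186). MICB encodes a ligand of the immune receptor NKG2D, and SOAT1 an enzyme of cholesterol esterification. RNF138 encodes a RING ubiquitin ligase and BLZF1 a Golgi protein. Their mean changes were -0.82, -1.03, -1.12, -0.72 and -0.90. A gene had to be lower with the mimic by about as much as NDFIP1, and even between lines, to be picked.

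Genes that work with the family were read from lists of names. Of 4 other arrestin-domain proteins tested, 0 passed limma's adjusted threshold, against 1.11% of all genes, and 1 had an unadjusted p under 0.05, against 11.8%. All 4 had a positive mean change, as did 52.4% of all genes. In 2 of the 4 the change was positive in every line, as in 18.5% of all genes. The gene with the unadjusted p was TXNIP, the arrestin-domain protein that restrains thioredoxin and glucose uptake, with levels of 8.17, 8.09 and 9.83 with the mimic in A172, T98G and U87MG, against 7.89, 7.69 and 9.66 with the control. It was higher in each line and highest in U87MG, like ARRDC4, but it was lowest in T98G and ARRDC4 in A172. Its mean change was 0.28 ± 0.12 (SD, n = 3), with adjusted p = 0.214 in limma. ARRDC3 was highest in T98G, ARRDC1 in A172, and ARRDC2 in U87MG with the mimic but not with the control. ARRDC1, which takes part in the release of vesicles at the plasma membrane, had a mean change of 0.17 ± 0.21 (SD, n = 3; adjusted p = 0.557), most of it from T98G, where the change was 0.42.

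Of 17 other partners and regulators tested, 0 passed limma's adjusted threshold, against 1.11% of all genes, and 1 had an unadjusted p under 0.05, against 11.8%. The median change was -0.04. CYLD, a deubiquitinase that works with ITCH, was at 0.23 ± 0.16 and N4BP2 at 0.22 ± 0.22, while SMAD6, an inhibitory SMAD that recruits SMURF ligases, was at -0.19 ± 0.14 and WBP2, a PY-motif protein, at -0.17 ± 0.15 (SD, n = 3 each). Their adjusted p lay between 0.378 and 0.513.

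Of 24 proteins described as substrates of the family, 1 was called lower and 0 higher, against 0.789% and 0.319% of all genes. A negative mean change was found in 17 (70.8%), against 47.6% of all genes. The list was chosen with earlier results of these data known, so these counts are a description. The median of the list was -0.05. The gene called was TGFBR1, a TGF-beta receptor that SMURF ligases reach through SMAD7. Its levels were 7.98, 6.95 and 8.93 with the mimic in A172, T98G and U87MG, against 8.55, 7.52 and 9.88 with the control, and it fell in each line, with a mean of -0.70 ± 0.22 (SD, n = 3; adjusted p = 0.0326 with limma). The call was lost without A172 (-0.76, adjusted p = 0.0659), without U87MG (-0.57, adjusted p = 0.179) and with no filter on low values (adjusted p = 0.0674).

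LATS1, a Hippo pathway kinase that ITCH and WWP1 can ubiquitinate, had levels of 7.57, 7.37 and 7.46 with the mimic in A172, T98G and U87MG, against 7.96, 7.68 and 7.94 with the control. Its groups did not overlap, as in 2.96% of all genes, and its mean change was -0.39 ± 0.08 (SD, n = 3; adjusted p = 0.0845, and 0.0116 with a variance prior that follows the mean level). SMAD5, a mediator of BMP signalling, was at -0.34 ± 0.11 (adjusted p = 0.144) and KLF5 at 0.22 ± 0.16 (adjusted p = 0.391; SD, n = 3 each). The groups of SMAD5 did not overlap either, with the mimic lower, as in the same 1.56% of all genes. These are levels of messenger RNA, and the ligases act on the proteins, which were not measured here.

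Of the ligases outside the family that share its catalytic HECT domain, 17 were tested. Limma's adjusted threshold was passed by 0 of them, against 1.11% of all genes, so that count says little about the list. An unadjusted p under 0.05 was found in 0, against 11.8% of all genes. In 6 the change was positive in every line and in 1 negative in every line, against 18.5% and 15.8% of all genes. Their median change was 0.05, beside 0.03 for the 7 ligases above. HECTD3 at 0.16 and HECTD4 at 0.14 were higher in each line, as was UBE3A, the ligase lost in Angelman syndrome, at 0.10. HERC4 at -0.11 was lower in each line. Their adjusted p lay between 0.475 and 0.659. With the mean over its probe sets in place of the brightest, HECTD4 was at 0.05 (adjusted p = 0.842 with limma).

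**Figure D4:**
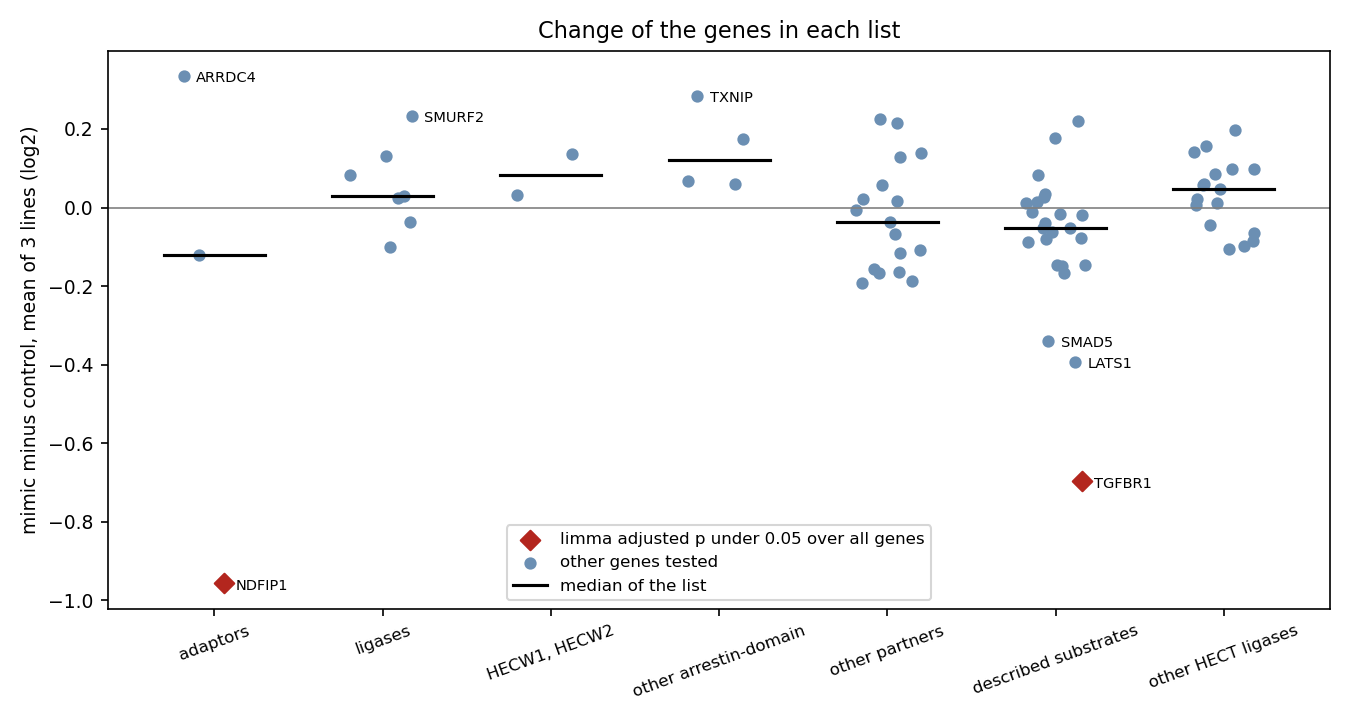
Mean change over the 3 lines (mimic minus control, log2) of each tested gene, by list, with the median of each list as a bar; diamonds mark genes past limma's adjusted threshold over all 13813 genes. NDFIP1 at -0.96 and TGFBR1 at -0.70 are the genes marked, and the medians of the lists lie between -0.12 for the 3 adaptors and 0.12 for the other arrestin-domain proteins.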

How the data were processed

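The deposited table holds log2 values that the authors made for 33297 probe sets on each of 6 Affymetrix Human Gene 1.0 ST arrays. Per the submitters' processing notes they used RMA, oligo and R 3.0.1; filters and batch handling: not given in the sources used here. RMA's quantile normalization gives the arrays a common distribution, which would hide a change of most genes in 1 direction.

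From these values, genes were named by the platform annotation (19460 probe sets with 1 symbol, 1754 with several, 12083 with none), with symbols updated through the RefSeq gene table for 19429. The brightest probe set per gene was kept, and the lowest 25% of genes by mean were left out (minimum 4.28). Mimic and control were compared with limma 3.58.1 in R 4.3.3, two-sided, with the line as an additive block and Benjamini-Hochberg adjustment over all 13813 genes at 0.05. The labels give each array's line, which pairs the arrays; deviations from the group means correlated within lines with r from 0.951 to 0.958. The 2 residual degrees of freedom rose to 6.56 with the variance prior. The labels do not say whether an array was 1 culture or a pool. The p-values of mimic against control measure how evenly the change was found over the pairs of arrays. They do not measure the spread between cultures of a line. The number of arrays limits the precision. Intervals are at 95%. The fits were tested on simulated data. The members and lists were chosen with earlier results of these data known. Of each list, genes past the threshold were named, then, up to 4 in all, those of largest mean change with 1 sign in all lines; HECW1 and HECW2 were named as the rest of the family. Of 78 list genes other than members and markers, 14 lacked a probe set with 1 symbol or lay below the filter, and are not analysed here. Alternatives changed the filter, block, array scaling, variance prior, probe set rule and the lines included.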

Additional observations from a re-analysis of the deposited data

Results flagged for a closer look

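The change of 3 ligases had opposite signs in different lines, with 1 pair of arrays per line, so these differences between lines were not tested. For NEDD4 the changes in T98G and U87MG were -0.01 and 0.19, a gap of 0.205 on the log2 scale. For NEDD4L they were -0.13 and 0.21, a gap of 0.338, and for WWP2 they were -0.12 and 0.17, a gap of 0.286.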

How the results depend on the processing

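The labels pair the arrays by line, and without that replicate block NDFIP1 kept its change of -0.96 but not its call (adjusted p = 0.9999, the same for TGFBR1), with 0 of the 10 genes and 0 of all genes past limma's threshold (1 and 127 at an unadjusted p under 0.05), against 1 and 153 in the fit reported. Leaving out each line in turn gave 0 to 1 of the 10 genes, 0 to 117 of all genes and a change of NDFIP1 from -0.961 to -0.950; the 0 came without U87MG, and 64 genes passed without A172. The count of all genes was 60 of 18417 with no filter and 360 of 9209 with the lower 50% left out. Of 13813 genes, 236 passed with arrays centred on their medians and 471 with a variance prior that follows the mean. Of the 10 genes, 2 passed with the lower 50% left out (ARRDC4 joining, adjusted p = 0.0379) and 2 with that prior (SMURF2 joining, 0.0449). Of the listed genes, TXNIP passed with that prior (0.0418) and SMAD5 with it (0.0204) and with the lower 50% left out (0.0458). LATS1 passed with both (0.0116 and 0.0209) and with centred arrays (0.0497). SMAD5 and LATS1 did not pass with no filter (0.255 and 0.167) or with 1 line left out (0.235 to 0.438 and 0.125 to 0.346). A172 minus T98G of NDFIP2 was not called with that prior (0.0530), with no filter (0.0651) or with no group term (0.0687). Leaving out 1 line turned the sign of NEDD4L (-0.0626 without U87MG, up to 0.107 without T98G), WWP2 (-0.0460 without U87MG, up to 0.0972 without T98G) and HECW2 (-0.0716 without T98G, -0.0148 without U87MG, up to 0.179 without A172). T98G minus U87MG of WWP2 was 0.0213 in the control arrays alone, of opposite sign. The F test over lines did not call NDFIP1 with no filter (adjusted p = 0.0804), with centred arrays (0.128) or with no group term (0.829). The difference of adaptors minus ligases was -0.302 with quantile normalization repeated and ran from -0.346 to -0.263 with a line left out. The other alternatives could not change it from -0.300, since each gene had 1 probe set and the arrays are balanced, so they do not test its stability. The causes of these shifts were not tested. The 3 arrays per group limit what can be called.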
